A study of Mus musculus with 6 samples.

Results

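Solute carriers are the membrane proteins, other than pumps and channels, that move nutrients, ions, metals and metabolites into, out of and between the compartments of a cell. Each numbered Slc family groups proteins of related sequence, and a family often shares a class of substrate: Slc7 and Slc38 proteins carry amino acids, Slc2 proteins sugars, Slc30 and Slc39 proteins zinc, and Slc12 proteins chloride together with sodium or potassium. Activated T cells depend on several of them, because growth after stimulation needs imported amino acids, glucose, phosphate, iron and folate. Transport direction, partners and trafficking are set at the protein level, which an mRNA count does not show.

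The mRNA of 153 solute carrier genes was compared between double negative T cells cultured with and without interleukin 10 (IL-10). The members were all genes of the deposited count table with a symbol of the form Slc, number, a, number that had at least 10 reads in at least 3 of the 6 libraries. All Slc25 mitochondrial carriers were left out, as were Slc2a1, Slc2a3, Slc16a1, Slc16a3, Slc28a2, Slc29a1 and Slc29a3. Slc genes with another letter in place of the a, such as Slc35c1, were not taken. The table held 308 genes with a symbol of the form taken, in 29393 rows. Of these, 54 were left out by name or family, 101 of the other 254 were under the read minimum, and the 153 members were part of 14916 genes that passed the same minimum. The members were grouped by substrate into 9 classes: 34 carriers of amino acids and peptides, 34 of inorganic ions, 24 of transition metals and heme, 17 of vitamins, choline and fatty acids, 15 of carboxylates and organic ions, 11 of sugars and sugar phosphates, 8 of osmolytes, creatine and amines, 6 of nucleotide sugars and acetyl-CoA, and 4 of nucleosides and nucleotides.

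The labels give the tissue as spleen and the strain as C57BL/6, from adult mice. Per the study's methods, CD4+CD25- T cells of spleen and lymph nodes of CD45.1 congenic C57BL/6 mice were converted into double negative T cells (cDNT) by coculture with mature dendritic cells and interleukin 2, were sorted, and were then stimulated through CD3 and CD28. In 3 libraries (labelled W/O IL-10, here control cDNT) no IL-10 was given, and in 3 libraries (labelled W/ IL-10, here IL-10-treated cDNT) IL-10 was present at 50 ng/ml for 24 h. The methods name the CD3 and CD28 stimulation together with IL-10 and do not state it separately for control cDNT. Cells of both groups are taken here as activated T cells, and no resting group was analysed here. The series' own design note speaks of duplicates, while 3 libraries a group were present. Nothing in the labels says that the libraries of a group came from separate mice or cultures, so the p-values measure only the spread between these samples, which may be technical.

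Libraries held 22953260 to 23967088 counted reads in control cDNT and 21619420 to 22958891 in IL-10-treated cDNT, and 3 reads corresponded to 0.123 to 0.146 CPM (reads scaled to a common library size). All 6 T cell markers were present, with a summed level of 1436 to 1842 CPM in control cDNT and 1855 to 1956 CPM in IL-10-treated cDNT. The double negative label held for Cd4, at 0.351 to 1.55 CPM, but not for CD8 at the mRNA level: Cd8a was at 95.8 to 119 CPM in control cDNT and at 139 to 169 CPM in IL-10-treated cDNT (adjusted p = 0.037, edgeR). The summed level of 7 dendritic cell markers was 30.2 to 33.2 CPM in control cDNT and 50.1 to 61.0 CPM in IL-10-treated cDNT. Most of that sum was Itgax, at 18.8 to 22.7 CPM in control and 39.9 to 49.4 CPM in IL-10-treated cDNT (log2 fold change 1.09; adjusted p = 0.0038, edgeR). Groups also lay apart for Xcr1, with a log2 fold change of 0.60, and for Zbtb46, with -0.44, and the other 4 of the 7 stayed under 1 CPM in all libraries. Summed levels of the other lists overlapped between groups: macrophage, 26.9 to 34.8 and 31.1 to 34.4 CPM; B cell, 62.3 to 153 and 59.4 to 106 CPM; erythroid, 1.12 to 5.52 and 0.666 to 1.65 CPM; neutrophil, 3.27 to 8.91 and 4.51 to 6.996 CPM. The part of these cells in the results below was not tested. In bulk RNA, fewer cells of a type and less RNA per cell cannot be told apart. The control library replicate 1 held both the lowest value of 33 members and the highest value of 41, more than any other library in each case. The median exonic GC content was 46.4% for the 33 and 51.7% over all members. Results whose call turned on this library are given with and without it, as are some whose size or sign did.

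Expression of most solute carriers differed little between control and IL-10-treated cDNT. Only 3 of the 153 members (1.96%) had an adjusted p under 0.05 in edgeR's quasi-likelihood test, where 2.19% of all tested genes did. All 3 were lower in IL-10-treated cDNT, as were 0.979% of all tested genes with such a p, and no member was higher, against 1.21% of all tested genes. These were Slc26a11, Slc2a6 and Slc37a2. Slc26a11 and Slc2a6 also reached a 1.5-fold change (1.31% of members, against 1.45% of all tested genes in either direction and 0.677% in the lower direction). No member was called higher, where 0.778% of all tested genes were. The 3 libraries of each group did not overlap for 39 members (25.5%, against 22.6% of all tested genes). Of these 20 were higher, against 11.3% of all tested genes, and 19 lower, against 11.2%. These shares were close to those of the whole table. The median log2 fold change was -0.03 over the members and 0.01 over all tested genes, and 131 members (85.6%) lay within 1.5-fold, as did 90.1% of all tested genes.

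Slc26a11 encodes an anion transporter that carries sulfate and chloride (ENSMUSG00000039908, chr11:119355557-119381079, plus strand, GRCm38). Its level was 199.7, 178 and 193 CPM in control cDNT and 123, 126 and 131 CPM in IL-10-treated cDNT. The lowest control library thus lay well above the highest treated library. The mean was 190.4 ± 10.96 CPM (SD, n = 3) without and 126.9 ± 3.74 CPM (SD, n = 3) with IL-10, a log2 fold change of -0.59 (SE 0.07; adjusted p = 0.0082, edgeR), which is 1.5-fold lower and thus at the fold threshold itself. Per kb of exon it was the most abundant inorganic ion carrier and the fifth most abundant of all members. The other 5 Slc26 members had log2 fold changes up to 0.55, and none passed the test. The adjusted p rose to 0.0522 without the treated replicate 1 and to 0.0603 without the treated replicate 3, while the log2 fold change stayed between -0.64 and -0.56.

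Slc2a6 encodes GLUT6, a glucose transporter family protein of lysosomal membranes (ENSMUSG00000036067, chr2:27021363-27027998, minus strand). Control libraries held 47.7, 56.2 and 48.7 CPM and IL-10-treated libraries 31.3, 32.2 and 29.3 CPM, so the groups lay apart. The mean fell from 50.9 ± 4.64 to 30.95 ± 1.48 CPM (SD, n = 3 each), a log2 fold change of -0.72 (SE 0.09; adjusted p = 0.0085, edgeR) and 1.64-fold lower. It was the most abundant of the 3 Slc2 members, with the glucose transporters Slc2a1 and Slc2a3 left out by the rule. The other Slc2 members ranged up to a log2 fold change of 0.03. Leaving out the treated replicate 1 or 3 raised the adjusted p to 0.0524 and 0.0772.

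Slc37a2 encodes an antiporter that exchanges glucose 6-phosphate for phosphate across the endoplasmic reticulum membrane (ENSMUSG00000032122, chr9:37227585-37255738, minus strand). It was read at 92.3, 88.1 and 80.3 CPM in control cDNT and at 57.7, 56.4 and 61.3 CPM in IL-10-treated cDNT, again with no overlap. The log2 fold change was -0.57 (SE 0.08; adjusted p = 0.011, edgeR), 1.49-fold lower and just short of the fold threshold. Of its exonic bases, 3.63% lie under a gene of the opposite strand, Gm48081, and reads of both cannot be told apart there if strand was not used in counting. The adjusted p passed 0.05 without the control replicate 2 (0.0541) and without each treated library (0.0531 to 0.0705).

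**Figure D1:**
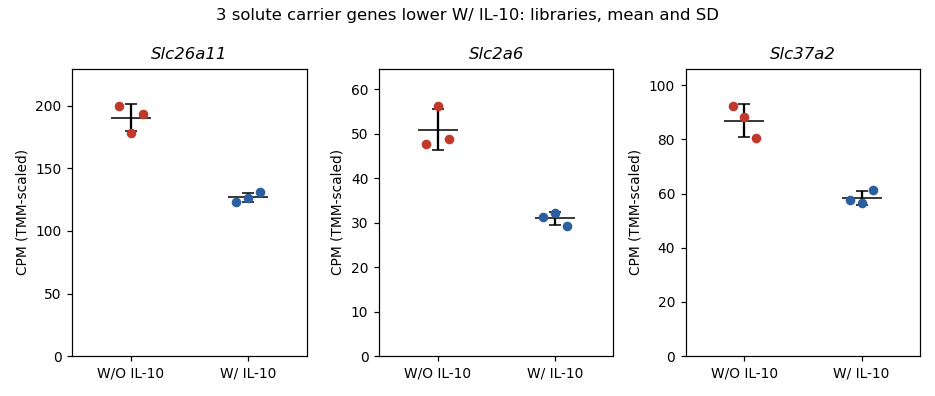
CPM (vertical axes, from 0, scaled by TMM factors) of Slc26a11, Slc2a6 and Slc37a2 in the 3 control (W/O IL-10, red) and 3 IL-10-treated (W/ IL-10, blue) libraries, with the mean (bar) and SD (whiskers). For each gene all 3 treated libraries sit under the lowest control library, which for Slc26a11 is 178 CPM against a highest treated value of 131 CPM.

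The 250 bases upstream of Slc2a6 and Slc37a2 are shown because these are the sugar carriers that passed the test. The sequences are RefSeq's for GRCm38.p6, on the strand of the gene, ending at the base before the transcription start. Capitals mark matches, on either strand, to the CCAAT box (CCAAT) or the AP-1 motif (TGANTCA).
Slc2a6, chr2:27027999-27028248, minus strand: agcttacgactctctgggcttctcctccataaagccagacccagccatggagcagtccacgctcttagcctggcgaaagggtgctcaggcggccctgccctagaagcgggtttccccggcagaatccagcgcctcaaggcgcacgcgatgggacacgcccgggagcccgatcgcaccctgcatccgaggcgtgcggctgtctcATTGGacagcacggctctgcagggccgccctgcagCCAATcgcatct
Slc37a2, chr9:37255739-37255988, minus strand: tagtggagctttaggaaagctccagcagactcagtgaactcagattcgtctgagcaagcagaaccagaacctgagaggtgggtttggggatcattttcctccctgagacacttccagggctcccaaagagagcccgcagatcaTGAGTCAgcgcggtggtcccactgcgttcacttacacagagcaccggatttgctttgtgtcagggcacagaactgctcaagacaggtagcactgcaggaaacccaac

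In the Slc2a6 window a CCAAT box began 47 bases before the start and another 12 bases before it. In the Slc37a2 window an AP-1 motif began 107 bases before the start. Of 32851 mouse promoter windows of this length, 33.8% held a CCAAT box and 6.75% an AP-1 motif on either strand, and of 150 windows of 114 members these shares were 30.7% and 7.33%. A STAT motif (TTCNNNGAA, in 7.02% of all windows and 4% of the members' windows) and an E-box (CACGTG, in 6.02% and 10%) were also searched and had no match in either window. A match is a run of letters and not a bound site. No window was available here for Slc26a11.

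By substrate class, the median log2 fold changes ran from -0.11 for osmolytes, creatine and amines to 0.10 for nucleotide sugars and acetyl-CoA. The osmolyte median was -0.19 without the control replicate 2 and -0.18 without the treated replicate 1 or after correction for GC content and length, and the median of carboxylate and organic ion carriers, -0.08, was -0.15 without the control replicate 3. Metal and heme carriers had the largest share of members whose groups did not overlap, 11 of 24 (45.8%, against 22.6% of all tested genes), with 8 higher and 3 lower (11.3% and 11.2% of all tested genes). None of them passed the adjusted p. Amino acid and peptide carriers had 4 of 34 (11.8%). Unadjusted p-values under 0.05 were found for 9 of 24 metal carriers (37.5%), for 31 of 153 members (20.3%) and for 14.7% of all tested genes.

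**Figure D2:**
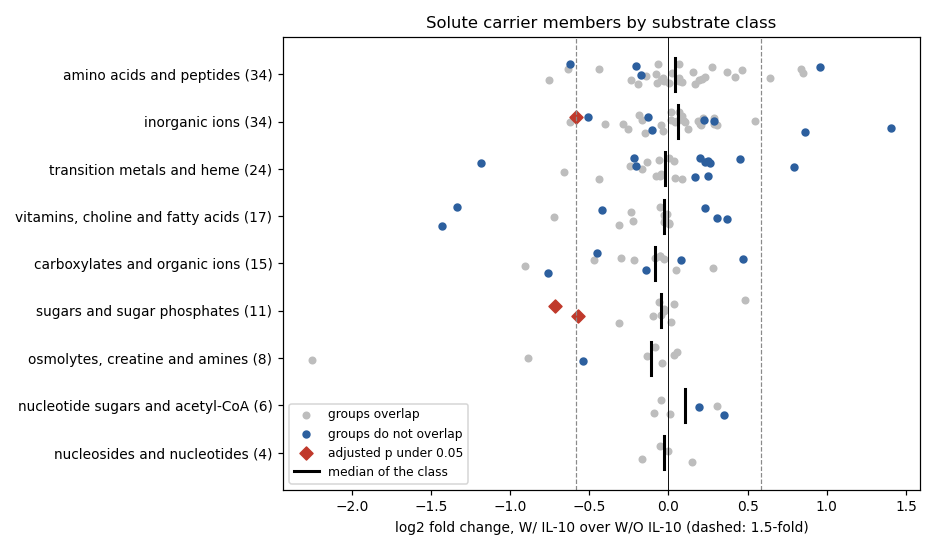
log2 fold change (IL-10-treated over control, horizontal axis) of all 153 members by substrate class, with the number of members in parentheses, the class median (black bar) and dashed lines at 1.5-fold. Red diamonds are the 3 genes with adjusted p under 0.05, all left of 0; blue points are members whose groups do not overlap and grey points those whose groups overlap. Vertical scatter within a class has no meaning.

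The amino acid carriers known from activated T cells had log2 fold changes near 0. Slc1a5, a glutamine carrier, was the most abundant member at 114 CPM per kb of exon, followed by Slc3a2 (99.0 CPM per kb) and Slc7a5 (85.3 CPM per kb), which together form the large neutral amino acid exchanger LAT1-CD98. Slc1a5 was read at 506, 444 and 440.2 CPM in control and 465, 502 and 487 CPM in IL-10-treated cDNT, a log2 fold change of 0.06 (SE 0.09). Slc3a2 gave 355, 365 and 339.9 CPM against 325, 385 and 327 CPM (log2 fold change -0.03, SE 0.09), and Slc7a5 330, 311 and 286 CPM against 315, 338 and 316 CPM (0.06, SE 0.08). In all 3 genes the groups overlapped. The system A carriers Slc38a1 and Slc38a2 had log2 fold changes of 0.00 (SE 0.07) and 0.07 (SE 0.09), and Slc38a9, the lysosomal arginine sensor of the mTORC1 pathway, 0.09 (SE 0.08). The cystine-glutamate exchanger Slc7a11, at 6.78 to 8.31 CPM, had -0.03 (SE 0.15) and the lysosomal carrier Slc36a1 -0.07 (SE 0.11). The signs of Slc38a1, Slc38a2, Slc3a2, Slc7a5, Slc7a11 and Slc36a1 depended on the processing or on single libraries.

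Lower in every treated library, but short of the adjusted p, were the arginine carrier Slc7a1 and its relative Slc7a7. Slc7a1 was at 261, 284 and 275 CPM in control and 255, 224 and 235 CPM in IL-10-treated cDNT (log2 fold change -0.20, SE 0.08; adjusted p = 0.276, edgeR). After correction for GC content and length the Slc7a1 value was -0.13. Slc7a7, part of a cationic amino acid exchanger, was at 4.21, 3.19 and 3.02 CPM against 2.09, 2.18 and 2.50 CPM (-0.62, SE 0.22; adjusted p = 0.232, edgeR). The Slc7a7 value was -0.47 without the control replicate 1. Among the peptide and histidine carriers of endosomes and lysosomes, Slc15a3 was at 24.0, 19.8 and 22.3 CPM against 11.7, 19.9 and 10.96 CPM, so the treated replicate 2 lay within the control range (-0.63, SE 0.21; adjusted p = 0.205, edgeR). Without that library the value was -0.96 with an adjusted p of 0.0325, and over the other fits that left out 1 library the adjusted p reached 0.495. Of its exonic bases, 28.1% lie under a gene of the opposite strand. Slc15a4 had -0.14 (SE 0.11).

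**Figure D3:**
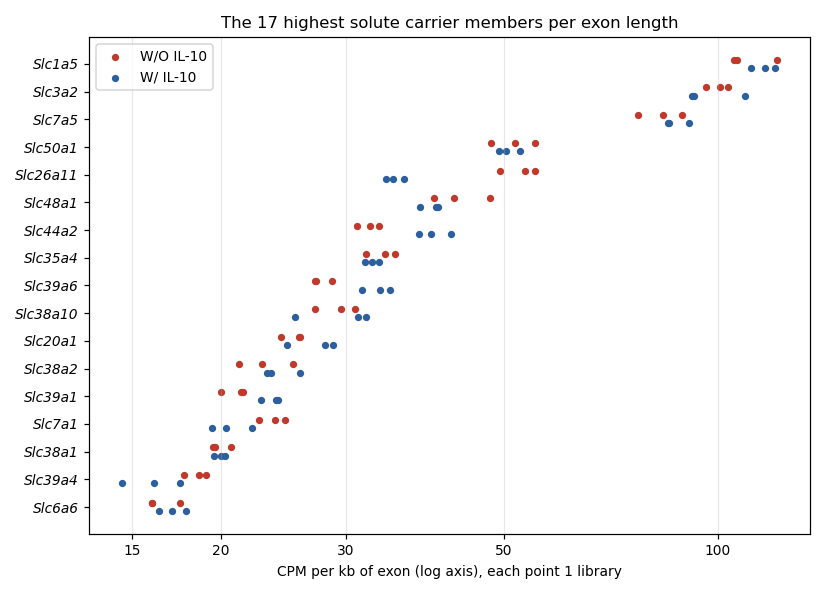
Level of the 17 most abundant members in CPM per kb of exon (horizontal log axis), 1 point for each library, control in red and IL-10-treated in blue. Slc1a5, Slc3a2 and Slc7a5 lead with overlapping groups, while for Slc26a11 all red points lie to the right of the blue ones.

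Levels per kb of exon spanned from 0.0264 CPM for Slc8a1 to 114 CPM for Slc1a5, with a median of 3.52 CPM per kb for the members and 5.21 CPM per kb for all tested genes. After Slc1a5, Slc3a2 and Slc7a5 came the sugar carrier Slc50a1 at 51.3 CPM per kb, Slc26a11 at 43.95 CPM per kb, the heme carrier Slc48a1 at 41.5 CPM per kb and the choline transporter-like gene Slc44a2 at 36.1 CPM per kb. The most abundant members of the other classes were Slc35a4 (33.2 CPM per kb) among nucleotide sugar carriers, the taurine carrier Slc6a6 (16.8 CPM per kb), the monocarboxylate family gene Slc16a6 (14.5 CPM per kb) and the purine nucleobase carrier Slc43a3 (11.9 CPM per kb). In these 4 classes the most abundant member had a log2 fold change between -0.05 and 0.05. All 4 had overlapping groups, and the signs of Slc35a4 and Slc43a3 turned under some processing. Of the exonic bases of Slc16a6, 22.5% lie under genes of the opposite strand, Amz2 and Arsg. Slc50a1 had -0.03 (SE 0.08), with a sign that also turned, and Slc48a1 -0.13 (SE 0.08), with overlapping groups in both.

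Zinc carriers made up 10 of the 11 metal carriers whose groups did not overlap, and 19 of all 24 members of that class. Slc30 proteins move zinc out of the cytosol, across the plasma membrane or into organelles, and Slc39 proteins move it into the cytosol. Groups did not overlap for 4 of 8 Slc30 members, 3 higher and 1 lower, and for 6 of 11 Slc39 members, 4 higher and 2 lower, where 22.6% of all tested genes lay apart. The median log2 fold changes were 0.06 for Slc30 and -0.05 for Slc39. None of the 19 had an adjusted p under 0.05.

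Slc39a6, a plasma membrane zinc importer and the most abundant zinc carrier per kb of exon (30.5 CPM per kb), was at 111, 111 and 117 CPM in control and 136, 129 and 141 CPM in IL-10-treated cDNT. All treated libraries were higher (1.20-fold; log2 fold change 0.26, SE 0.07; adjusted p = 0.108, edgeR). Its close relative Slc39a10 was at 32.5, 36.8 and 40.5 CPM against 47.2, 41.7 and 41.5 CPM (0.25, SE 0.10), with the lowest treated library only just above the highest control. Without the control replicate 1 its log2 fold change was 0.16, and after correction for GC content and length it was 0.18. Slc39a8, which carries zinc and manganese, was at 6.66, 7.20 and 9.91 CPM against 10.6, 11.1 and 10.8 CPM (0.45, SE 0.17; adjusted p = 0.244, edgeR), also apart. The Slc39a8 value was 0.33 without the control replicate 1. Slc39a1 was at 50.5, 47.4 and 50.9 CPM against 53.8, 56.9 and 56.6 CPM (0.17, SE 0.07), and 21.8% of its exonic sequence is shared with the pseudogene Slc39a1-ps, so its count is uncertain. Lower in all treated libraries were Slc39a4, at 59.3, 55.1 and 57.8 CPM against 45.1, 54.4 and 50.1 CPM (-0.20, SE 0.09), and Slc39a13, at 17.98, 17.4 and 15.9 CPM against 15.2, 13.8 and 15.1 CPM (-0.22, SE 0.11). After correction for GC content and length these values shrank to -0.11 for Slc39a4 and -0.095 for Slc39a13.

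Among exporters, Slc30a4 and Slc30a2, which both load zinc into vesicles, had log2 fold changes of opposite sign. Slc30a4 was at 31.1, 64.0 and 65.1 CPM in control and 101, 82.5 and 94.6 CPM in IL-10-treated cDNT, with the control replicate 1 far under the other controls. The 1.73-fold difference (log2 fold change 0.79, SE 0.24) had an adjusted p of 0.153 in edgeR's test. Without that library it was 0.51 with an adjusted p of 0.0089, so the value was smaller and passed the test. Over all fits that left out 1 library the adjusted p reached 0.392. Its exonic GC content was 42.1%, and its log2 fold change after correction for GC content and length was 0.67. Slc30a2 was at 4.13, 4.67 and 4.95 CPM against 1.26, 3.02 and 1.75 CPM, all treated libraries lower (log2 fold change -1.18, SE 0.30; 2.27-fold lower; adjusted p = 0.096, edgeR). Without the control replicate 1 it was -1.26 with an adjusted p of 0.0459, and over all fits that left out 1 library it ran from -1.60 to -0.94 with adjusted p-values up to 0.346. Slc30a1, the plasma membrane exporter that zinc itself induces, was at 6.90, 7.49 and 7.49 CPM against 8.11, 8.13 and 9.46 CPM (0.23, SE 0.13; 0.15 without the treated replicate 3), and Slc30a9 of mitochondria at 68.4, 76.7 and 77.2 CPM against 87.6, 77.6 and 89.6 CPM (0.20, SE 0.08). The Slc30a9 value was 0.13 without the control replicate 1.

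**Figure D4:**
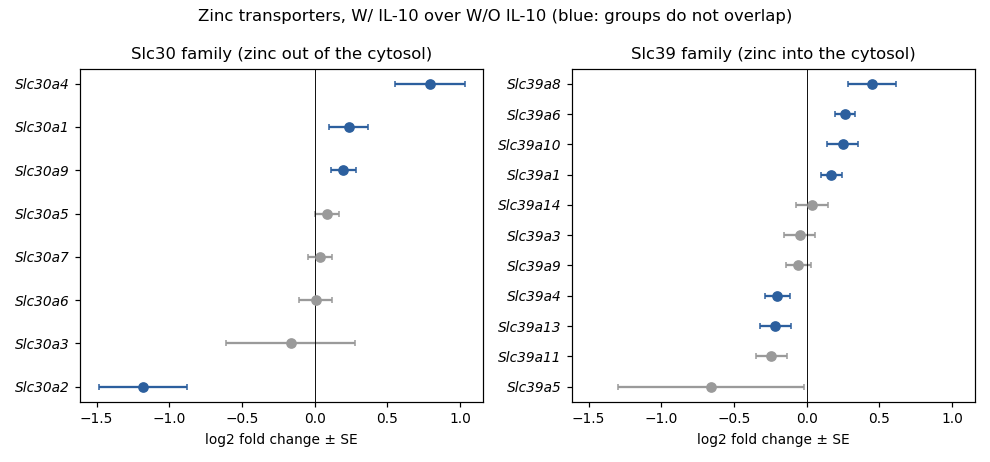
log2 fold change (IL-10-treated over control, with its SE as whiskers) of the 8 Slc30 and 11 Slc39 members. Blue points are genes whose groups do not overlap, 10 of the 19; Slc30a4 at 0.79 and Slc30a2 at -1.18 are the extremes, and no gene passed the adjusted p.

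Of the other metals, the copper importer Slc31a1 was at 27.3, 29.2 and 27.997 CPM in control and 36.1, 33.7 and 30.5 CPM in IL-10-treated cDNT, higher in each treated library (log2 fold change 0.25, SE 0.09; adjusted p = 0.255, edgeR). The Slc31a1 value was 0.16 after correction for GC content and length. The iron importer Slc11a2 was at 39.3 to 54.2 CPM in control and 40.04 to 47.8 CPM in IL-10-treated cDNT, with a log2 fold change of -0.08 (SE 0.12) that turned to 0.03 without the control replicate 1. The iron exporter Slc40a1 did not reach the read minimum. Median exonic GC content was 45.2% for the Slc30 members and 51.7% for all members, and a correction for GC content and length moved the Slc30 median from 0.06 to -0.02 and the Slc39 median from -0.05 to 0.07.

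The ion carriers held the largest positive change of all members, in Slc9a2, a sodium-proton exchanger. It was at 0.817, 0.579 and 0.775 CPM in control and 1.65, 1.55 and 2.54 CPM in IL-10-treated cDNT, from 14 to 58 reads a library. Treated libraries were all higher (2.65-fold; log2 fold change 1.41, SE 0.33; adjusted p = 0.075, edgeR). The potassium-chloride cotransporter Slc12a7 was at 56.1, 47.1 and 51.9 CPM against 63.6, 56.4 and 69.1 CPM (0.29, SE 0.10; adjusted p = 0.221, edgeR; 0.40 with an adjusted p of 0.0341 after correction for GC content and length). Its relative Slc12a2, a sodium-potassium-chloride cotransporter, had 0.12 (SE 0.14), which turned to -0.03 without the control replicate 1.

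The phosphate importer Slc20a1 was at 144, 136 and 144 CPM against 161, 138 and 157 CPM, with overlap (0.10, SE 0.08). The bicarbonate carrier Slc4a7 was at 39.5, 59.1 and 61.4 CPM against 75.3, 60.4 and 59.7 CPM, and its log2 fold change of 0.29 (SE 0.17) was 0.10 without the control replicate 1 and 0.17 without the treated replicate 1. Low in read number and apart between groups were Slc4a11, at 4.98, 6.45 and 5.13 CPM against 4.37, 3.33 and 3.94 CPM (-0.51, SE 0.19), and the sodium-calcium-potassium exchanger Slc24a1, at 1.55, 1.94 and 1.03 CPM against 3.74, 2.13 and 2.41 CPM (0.87, SE 0.32). Neither passed the adjusted p (0.254 and 0.256, edgeR).

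Among vitamin, choline and fatty acid carriers, 6 of 17 had groups that did not overlap (35.3%, against 22.6% of all tested genes), 3 higher and 3 lower. Slc23a3, one of the lower genes, became a member through its control libraries alone, as described below. Slc44a2, abundant and linked to choline, was at 281, 269.7 and 289.6 CPM in control and 329, 343 and 366 CPM in IL-10-treated cDNT. It was 1.24-fold higher (log2 fold change 0.30, SE 0.08; adjusted p = 0.090, edgeR), and after correction for GC content and length the value was 0.37 with an adjusted p of 0.0191. The riboflavin carrier Slc52a3 was at 27.99, 28.3 and 29.4 CPM against 30.9, 36.8 and 32.9 CPM (0.23, SE 0.09), and the lysosomal Slc46a3 at 7.89, 8.52 and 6.20 CPM against 8.70, 9.90 and 10.6 CPM (0.37, SE 0.16; 0.24 without the control replicate 3). The reduced folate carrier Slc19a1 was at 24.6 to 29.1 CPM against 25.6 to 26.97 CPM (-0.03, SE 0.09), with a sign that changed after correction for GC content and length.

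The 5 Slc27 members, which take up long chain fatty acids and join them to coenzyme A, had a median log2 fold change of -0.31 and a range from -1.34 to -0.05. All were negative as fitted, where 7275 of 14916 tested genes were, but 4 were after correction for GC content and length and without the treated replicate 1 or 3. The median was -0.18 without the control replicate 1 and between -0.44 and -0.29 without any other library. Slc27a1 was at 19.2, 17.8 and 17.6 CPM in control and 13.8, 12.2 and 14.9 CPM in IL-10-treated cDNT, apart in all libraries (-0.42, SE 0.11; adjusted p = 0.113, edgeR). After correction for GC content and length the Slc27a1 value was -0.30 (adjusted p = 0.228, edgeR). Slc27a2 was at 1.51, 1.45 and 1.51 CPM against 0.389, 0.888 and 0.482 CPM, from 8 to 37 reads a library (-1.34, SE 0.37; adjusted p = 0.121, edgeR). A gene of the opposite strand, Gm26697, lies over 11.2% of the exonic bases of Slc27a2. No Slc27 gene passed the test. Of the families for which a median was taken, Slc22 and Slc27 had the most negative ones. The most positive median was 0.22, for the 3 Slc24 members, and 6 of 7 Slc38 members had positive values. Slc23a3, of the ascorbate carrier family, was at 0.572, 0.869 and 1.03 CPM against 0.437, 0.266 and 0.219 CPM, but it reached the read minimum in control libraries alone, so a difference was built into its membership.

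The organic ion carriers of the Slc22 family had 5 of 6 negative log2 fold changes, where 7275 of 14916 tested genes were negative, and a median of -0.38. Without the control replicate 1, 4 were negative and the median was -0.20, and without the control replicate 3 it was -0.57. Slc22a5 and Slc22a21, both negative as fitted, share 26.3% and 22.04% of their exonic sequence with other genes, including each other. Their counts are therefore uncertain and may not be separate. Slc22a23 and Slc22a17, also negative, had only 19 to 58 and 20 to 44 reads a library. Slc22a3, a carrier of organic cations and monoamines, was at 6.74, 3.85 and 4.01 CPM in control and 3.16, 3.38 and 2.10 CPM in IL-10-treated cDNT (-0.76, SE 0.28; adjusted p = 0.255, edgeR), and -0.46 without the control replicate 1. The opposite-strand gene Plg lies over 9.31% of the exonic bases of Slc22a3. Slc22a15 went the other way, at 16.6, 13.9 and 17.3 CPM against 22.8, 18.9 and 24.6 CPM (0.47, SE 0.13; adjusted p = 0.127, edgeR; 0.52 with an adjusted p of 0.0432 after correction for GC content and length). In the 7 monocarboxylate family members of Slc16, no gene had groups that lay apart, where 22.6% of all tested genes did.

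Of the osmolyte and amine carriers, the vesicular monoamine transporter Slc18a2 was at 25.8, 39.3 and 29.1 CPM in control and 21.2, 24.2 and 19.4 CPM in IL-10-treated cDNT. The treated libraries were all lower (-0.54, SE 0.16; adjusted p = 0.149, edgeR). The value was -0.67 with an adjusted p of 0.0173 without the control replicate 1 and -0.36 without the control replicate 2, and the adjusted p reached 0.426 over the fits that left out 1 library. The serotonin transporter Slc6a4 had the most negative value of all members, -2.25 (SE 1.08; adjusted p = 0.387, edgeR). Its 75, 19 and 2 reads in control and 13, 3 and 2 reads in IL-10-treated libraries overlapped, and the value was -0.68 without the control replicate 1 and -3.58 without the treated replicate 1. The taurine carrier Slc6a6, at 135 to 148 CPM against 139 to 151 CPM, had 0.05 (SE 0.07). The inositol carrier Slc5a3 had -0.14 (SE 0.13) and the creatine carrier Slc6a8 -0.04 (SE 0.23).

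Among carriers of nucleotide sugars, which feed glycosylation in the Golgi, the UDP-N-acetylglucosamine carrier Slc35a3 was at 40.1, 58.9 and 61.3 CPM in control and 78.2, 63.3 and 62.8 CPM in IL-10-treated cDNT. Its log2 fold change of 0.35 (SE 0.16) was 0.17 without the control replicate 1 and 0.22 after correction for GC content and length. Its exonic GC content was 41.9%. Slc35a1, which carries CMP-sialic acid, had -0.09 (SE 0.11). The acetyl-CoA carrier Slc33a1 was at 12.5, 24.3 and 28.4 CPM against 27.4, 27.7 and 25.7 CPM, and its value of 0.31 (SE 0.25) was 0.02 without the control replicate 1 and 0.54 without the control replicate 3. None of the 4 nucleoside carriers among the members had groups that lay apart, where 22.6% of all tested genes did, so with 4 genes nothing is read from it.

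A list of 31 transporters known from T cells, most of them described above, had 29 members. None had an adjusted p under 0.05, 7 had an unadjusted p under 0.05 (24.1%, against 14.7% of all tested genes), and 8 had groups that did not overlap (27.6%, against 22.6%), 6 higher and 2 lower. Their median log2 fold change was 0.05. Of 19 transporters of the superfamily with symbols of other forms, among them the heme and phosphate exporters Flvcr1 and Xpr1 and the pyruvate carriers Mpc1 and Mpc2, none passed the adjusted p in edgeR's test, and the median was -0.08. Of 23 genes for transporter partners, regulators and metal binding proteins, 1 passed: Emb, which encodes embigin, a chaperone that brings monocarboxylate transporters to the plasma membrane. It was at 146, 176 and 186 CPM in control and 247, 235 and 263 CPM in IL-10-treated cDNT, apart in all libraries (1.47-fold; log2 fold change 0.55, SE 0.10; adjusted p = 0.032, edgeR). The adjusted p ran from 0.0817 to 0.185 when the control replicate 2 or any treated library was left out.

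Membership itself rested on few reads for some genes. Of the 153 members, 141 had at least 10 reads in all 6 libraries, 6 in 4 or 5 libraries and 6 in exactly 3: Slc1a2, Slc23a3, Slc38a11, Slc39a5, Slc6a4 and Slc7a2. Slc38a11, with 9, 5 and 9 reads in control and 14, 13 and 14 reads in IL-10-treated libraries, passed through the treated libraries alone, and its value of 0.96 (SE 0.43) was built in to that extent. Slc1a2 had 6, 5 and 10 reads in control and 2, 14 and 19 in treated libraries, Slc39a5 had 24, 18 and 3 against 7, 11 and 8, and Slc7a2 had 6, 14 and 3 against 10, 10 and 9, all with overlap. Just outside were Slc12a3, Slc23a4, Slc39a7 and Slc4a5, at the minimum in 2 libraries each, with at most 20 reads in any library. Another 12 genes reached it in 1 library and 85 in none.

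Under other processing the 3 lower genes kept their direction. Their log2 fold changes after correction for GC content and length were -0.51, -0.61 and -0.53 for Slc26a11, Slc2a6 and Slc37a2, with adjusted p-values of 0.0035, 0.0061 and 0.0029 in edgeR. DESeq2 gave 8 of the 153 members with an adjusted p under 0.05, 5 lower and 3 higher, where 4.67% of all tested genes (696) passed. The GC content and length correction gave 7 of the 153, of which 4 were higher, where 3.69% of all tested genes (550) passed. These shares of all tested genes are for both directions together. Against the stricter null hypothesis of a 1.5-fold change, no member passed, and 15 genes of the whole table did.

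**Figure D5:**
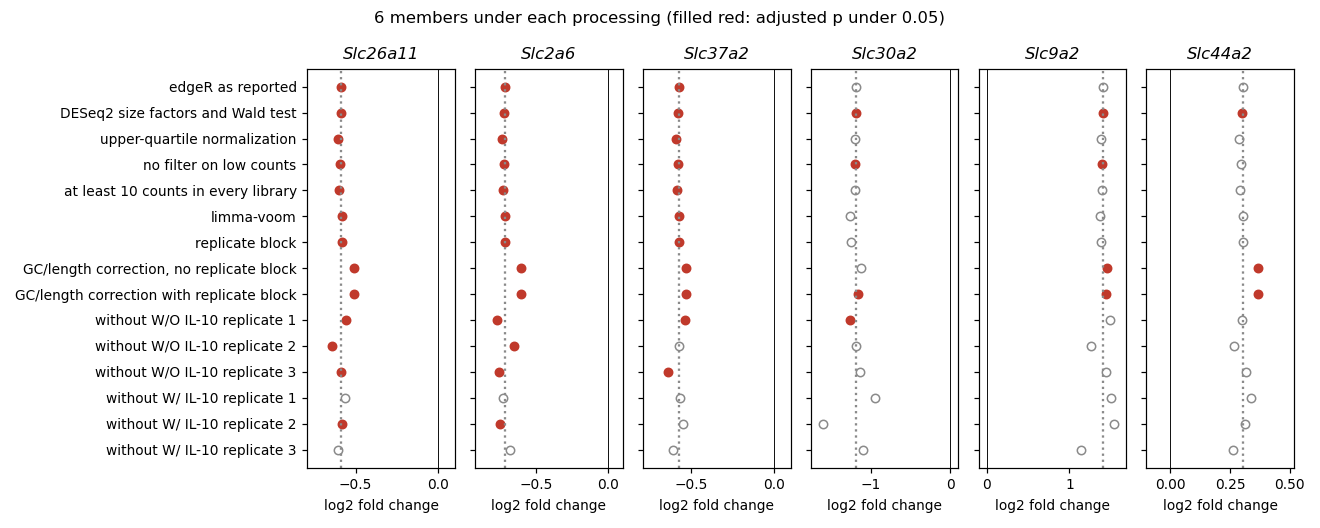
log2 fold change (horizontal axes) of 6 members under each processing (vertical axis), filled red where the adjusted p was under 0.05 and hollow grey otherwise, with a dotted line at the value reported here; the test against a 1.5-fold change is not drawn. Slc26a11, Slc2a6 and Slc37a2 stay left of 0 throughout and lose the adjusted p without single libraries, while Slc30a2, Slc9a2 and Slc44a2 pass under some settings only.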

How the data were processed

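Total RNA of 6 libraries was sequenced, and the authors deposited raw read counts per Ensembl gene, which were used as deposited. The submitters' processing notes name HISAT2, HTSeq and GRCm38, while the study's methods name TopHat and Cufflinks; versions and the strand setting are not given in the sources used here. A read that fits several genes may be lost or split, so shared and overlapping exonic sequence was measured against GENCODE M21 (stretches of 50 bases). Symbols came from that annotation for 29332 of 29393 identifiers. The authors' columns other than counts were not used.

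Genes that reached 10 counts in 3 or more libraries were fitted with edgeR 4.0.16 (R 4.3.3; TMM scaling, quasi-likelihood test, Benjamini-Hochberg adjustment over all 14916 genes), W/ IL-10 against W/O IL-10, without covariates. Called means a fold change of at least 1.5 and an adjusted p under 0.05. CPM are TMM-scaled. Alternatives were DESeq2 1.42.0, limma 3.58.1 (voom), upper-quartile scaling, other count filters, a 1.5-fold null hypothesis, a spline correction (5 degrees of freedom) for GC content and length, the replicate number as a block, and leaving out each library. The procedure was tested on simulated data.

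The genes named are those called or past the adjusted p, in each class the most abundant and the one with the largest change without overlap, and a T cell list, of which some genes are not reported here. Slc30a4, Slc30a9, Slc39a4, Slc39a8, Slc39a13, Slc27a1, Slc27a2, Slc22a15, Slc12a7, Slc7a7, Slc6a4, Slc24a1, Slc4a11, Slc52a3, Slc46a3, Slc1a2, Slc39a5 and Slc7a2 were named after their values were seen. The members, classes and lists were chosen with earlier results of these data known. With counting error only, 3 counts set the floor of a library.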

Additional observations from a re-analysis of the deposited data

How the results depend on the processing

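With 3 libraries a group, small changes are below what these data can resolve, and members with few reads have wide errors. Of 938 values of 63 genes under the alternatives, 854 kept their direction and side of the threshold, 30 newly passed the adjusted p, 16 lost it and 38 changed sign. Only Slc26a11, Slc2a6, Slc37a2 and Emb had passed as fitted, so all 16 losses fell on these genes. Most of the 854 values are of genes with no call to lose. The cause of the changes was not tested. Replicate numbers are shared between groups by label alone, so libraries were not paired in the fit. Deviations from the group means correlated at 0.0719, -0.0431 and 0.170 for same-numbered libraries and at -0.138 to 0.0437 for the others. With 3 libraries a group these values cannot decide whether the libraries were paired. The replicate block left 3 members with an adjusted p under 0.05 and 1 called lower instead of 2.

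Members called lower numbered 6 without a count filter, 1 with limma-voom, 1 with the GC content and length correction, 0 against a 1.5-fold null hypothesis, and 0 to 3 when libraries were left out (0 without the treated replicate 1 or 3). Members called higher numbered 2 with DESeq2, 2 without a filter, 1 with the GC content and length correction, 2 with that correction and the replicate block, and 0 in every leave-one-out fit. Members with an adjusted p under 0.05 and lower numbered 5 with DESeq2, 9 without a filter, 0 against the 1.5-fold null hypothesis, 5 with correction and block, and 0 to 5 when libraries were left out. Those higher numbered 3 with DESeq2, 4 without a filter, 4 with the correction, 6 with correction and block, and 0 to 1 when libraries were left out (1 without the control replicate 1). Over all tested genes, in both directions together, the adjusted p was passed by 327 genes (2.19%), and by 696 (4.67%) with DESeq2. It was passed by 550 (3.69%) with the correction, 924 (6.19%) with correction and block, and 15 (0.101%) against the 1.5-fold null hypothesis. When libraries were left out, 35 to 512 genes (0.235% to 3.43%) passed it. Without a filter 1239 of 29393 genes (4.22%) passed it, while the members counted were the same 153. Of all tested genes 217 were called, against 359 with DESeq2 and 639 of 29393 without a filter. Limma-voom called 205 and the replicate block 196. With the correction 277 were called, and with correction and block 351. Against the 1.5-fold null hypothesis 15 were, and 35 to 251 when libraries were left out. The members' median log2 fold change was 0.025 with the correction, 0.021 with correction and block, and -0.0365 to -5.55e-05 when libraries were left out.

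Signs changed for small values. The GC content and length correction, without and with the replicate block, gave log2 fold changes of 0.072 and 0.073 for Slc19a1, 0.037 and 0.038 for Slc35a4, 0.022 and 0.021 for Slc36a1, 0.048 and 0.046 for Slc3a2, 0.025 and 0.021 for Slc43a3, 0.049 and 0.049 for Slc50a1, and 0.046 and 0.047 for Slc6a8. Slc38a1 was at -0.00391 with DESeq2, -0.017 with upper-quartile scaling, -0.00655 without a filter and -0.012 with at least 10 counts in every library. Leaving out libraries gave -0.201 to 0.032 for Slc11a2, -0.026 to 0.199 for Slc12a2, -0.090 to 0.034 for Slc19a1, -0.145 to 0.011 for Slc36a1, -0.025 to 0.016 for Slc38a1, -0.00039 to 0.126 for Slc38a2, -0.117 to 0.0098 for Slc3a2, -0.104 to 0.058 for Slc43a3, -0.089 to 0.016 for Slc50a1, -0.188 to 0.079 for Slc6a8, -0.117 to 0.022 for Slc7a11 and -0.00100 to 0.105 for Slc7a5.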
